A study of Homo sapiens with 18 samples.

Results

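The control siRNAs of the study, siCtrl#1 and siCtrl#2, which have no intended target, were set against each other in RKO cells, an established human colorectal carcinoma line. The 6 libraries of this comparison, 3 for siCtrl#1 and 3 for siCtrl#2, were chosen by their treatment label from the 18 libraries of the study. In the other 12 libraries TSG101 or VPS28, both subunits of the endosomal sorting complex ESCRT-I, was silenced with siTsg101#1, siTsg101#2, siVps28#1 or siVps28#2. All cells were transfected with 30 nM of an Ambion Silencer Select siRNA in lipid and harvested 72 h later, so that no library came from untransfected cells. Each siRNA was used once in each of 3 batches, and the batch number paired the libraries. The libraries of a group came from independent experiments. The level of a gene is given throughout in CPM, its counts scaled to a library total of 1000000 counted reads after TMM normalization.

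A small interfering RNA is loaded into an Argonaute protein, whose guide strand pairs with a target transcript and leads to its cleavage. A nontargeting siRNA is designed to match no human transcript in full, but short matches between the seed region of any guide and a transcript can lower its RNA or its translation, much as a microRNA does. Transfected double-stranded RNA can also be sensed by receptors that induce interferon-response genes. For this reason many knockdown studies use more than 1 nontargeting siRNA, and a difference between them shows the range of the baseline against which an on-target siRNA is read.

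The labels were first checked against the targeted genes. TSG101 stood at 78.4, 159 and 118 CPM with siCtrl#1 and at 141, 74.5 and 94.2 with siCtrl#2, while its group means were 3.90 and 3.43 with the siTsg101 siRNAs. VPS28 stood at 110, 112 and 87.9 with siCtrl#1 and at 86.1, 73.8 and 65.1 with siCtrl#2, against group means of 5.68 and 6.11 with the siVps28 siRNAs. Neither gene was called between the nontargeting siRNAs (log2 fold change of siCtrl#2 over siCtrl#1 −0.18 ± 0.24 SE, adjusted p = 0.77, and −0.46 ± 0.17, adjusted p = 0.152, edgeR quasi-likelihood test with Benjamini-Hochberg adjustment). All VPS28 values were lower with siCtrl#2, and without siCtrl#2 replicate 1 its log2 fold change was −0.63 with an adjusted p of 0.0328. Of 21 epithelial markers on the panel, EPCAM, KRT8 and KRT18 were among those read, and 7, among them CDH1, KRT19, KRT20 and VIL1, had no count in any of the 6 libraries. Markers of fibroblasts and endothelium were at 0 for 13 of 16 genes, with summed levels of 0.171 to 1.54 with siCtrl#1 and 0 to 0.771 with siCtrl#2. Immune markers were at 0 for 13 of 16 genes including PTPRC, and without CD68, a lysosomal protein, their summed level stayed between 0 and 1.20 CPM in the 6 libraries.

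One library stood apart from its group. The log2 levels of siCtrl#2 replicate 1 correlated across genes with the other siCtrl#2 libraries at r = 0.9636 and 0.9645, and with the siCtrl#1 libraries at 0.9666 to 0.9717, genes not being independent replicates. The other siCtrl#2 libraries correlated with each other at 0.9791, and the siCtrl#1 libraries among themselves at 0.9741 to 0.9811. The median of the ATF4 amino acid response genes was higher with siCtrl#2 by 0.70 on the log2 scale in batch 1 and lower by −0.05 and −0.34 in batches 2 and 3. In that batch it was the siCtrl#1 library that stood lowest for this list, at −0.58 relative to the mean of the 6 libraries, against 0.21 for siCtrl#2 replicate 1. Cytosolic heat shock genes went the other way, at −0.45 in batch 1 and 0.03 and 0.28 in the others. For this list the siCtrl#1 library of batch 1 stood highest of the 6, at 0.40, against −0.10 for siCtrl#2 replicate 1. Counts of called genes that moved by over 1.5 times without siCtrl#2 replicate 1 are therefore given with that fit's value beside them. That fit called 3.56% of all genes tested higher and 3.52% lower, more than the fit with all libraries, so its list counts are to be read beside these shares.

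Of 10213 protein-coding genes tested, 207 were higher and 120 were lower with siCtrl#2 than with siCtrl#1, which are 2.03% and 1.17% of all genes tested. A gene was called at an adjusted p under 0.05 and a fold change of at least 1.5. The median log2 fold change over all genes was −0.002. The called genes had a median log2 fold change of 0.87 among those higher and −0.77 among those lower, and 64 and 35 of them differed by more than 2-fold. All 3 siCtrl#2 libraries lay above all 3 siCtrl#1 libraries for 192 of the 207, a separation that 8.61% of all genes tested showed, and below them for 115 of the 120, which 8.29% of all genes showed.

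Without siCtrl#2 replicate 1, 364 genes were called higher (3.56%) and 360 lower (3.52%), of which 174 and 113 were among the genes called with all libraries. Without the batch term 144 genes were higher and 69 lower, all of them among the 207 and 120. With only the 6 nontargeting libraries in the model, 50 were higher and 22 lower, of which 50 and 21 were shared with the full model. No gene called in the full model had the opposite sign in any of the 17 alternative fits. These genes were chosen for their difference in the same libraries, so that a change of sign was unlikely beforehand.

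**Figure D1:**
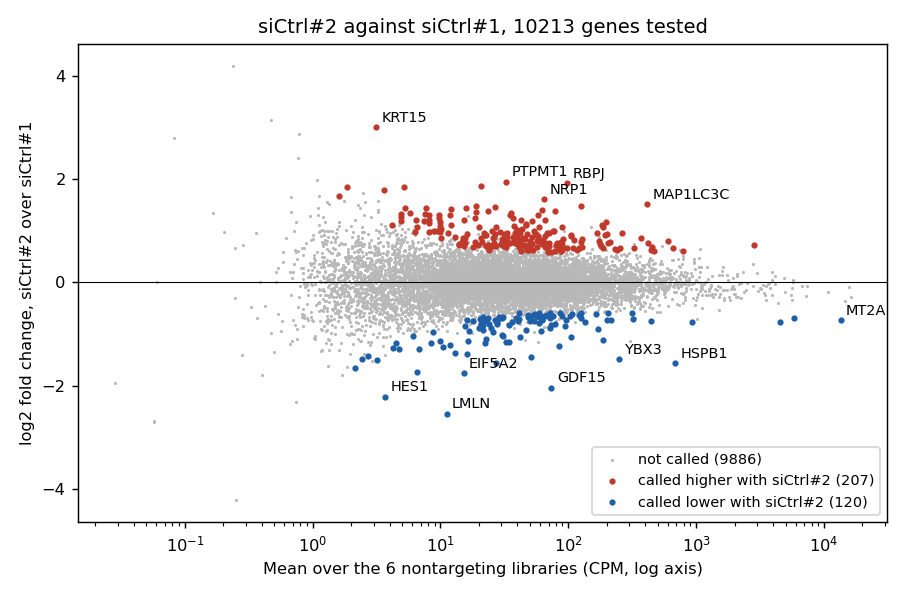
Each point is 1 of the 10213 genes tested, with its mean over the 6 nontargeting libraries (CPM, log axis) and its log2 fold change of siCtrl#2 over siCtrl#1. The 207 genes called higher and the 120 called lower lie at all but the lowest levels, and the cloud of other genes is centred on 0.

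The genes with the smallest p-values among those higher with siCtrl#2 did not belong to a single pathway. PTPMT1, a mitochondrial phosphatase needed for cardiolipin synthesis (GRCh37, chr11:47586982-47595013, plus strand), stood at 13.6, 12.6 and 13.2 CPM with siCtrl#1 and at 54.3, 57.7 and 43.4 with siCtrl#2. Its log2 fold change was 1.95 ± 0.17 (SE, adjusted p = 7.53e-07). The groups did not overlap, and the 4 on-target groups had means of 41.0 to 55.2, so that siCtrl#1 was the group that stood apart. Part of this gene overlaps CELF1 and KBTBD4 on the other strand and NDUFS3 on its own, and 19.0% of the 50-base stretches of its longest transcript occur in another gene, so that reads of a neighbour cannot be told apart where the panel's amplicon lies in them.

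RBPJ, the DNA-binding factor of the Notch pathway (chr4:26165077-26436753), stood at 34.0, 33.5 and 55.6 with siCtrl#1 and at 123, 145 and 198 with siCtrl#2, a log2 fold change of 1.92 ± 0.18 (adjusted p = 1.01e-06). Here the on-target group means of 76.7 to 91.8 lay between the means of 41.0 ± 12.6 (SD, n = 3) for siCtrl#1 and 155 ± 38.5 for siCtrl#2. ARL1, a small GTPase of the Golgi, rose from 66.5 ± 7.61 with siCtrl#1 to 184 ± 15.9 with siCtrl#2 (log2 fold change 1.48). PRR3 and PDCD6 came next by p-value (1.30 and 1.38), and then the receptors NRP1 and MET. NRP1, a co-receptor for semaphorins and VEGF, stood at 29.9, 29.2 and 37.3 with siCtrl#1 and at 94.0, 91.8 and 105 with siCtrl#2 (1.62), and MET, the receptor of hepatocyte growth factor, at 26.7, 33.8 and 41.7 against 79.3, 101 and 91.9 (1.40). For both genes siCtrl#1 was the lowest of the 6 groups, since the on-target means were 81.9 to 113 for NRP1 and 139 to 173 for MET.

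CCND3, a D-type cyclin, was higher with siCtrl#2 by 1.22 on the log2 scale. PDCD6 encodes a calcium-binding partner of ESCRT-associated ALIX. SUSD1 (1.11), TTL, the tubulin tyrosine ligase (1.00), and MAP1LC3C, an LC3 protein of autophagosomes (1.51), were also among the genes with the smallest p-values. MAP1LC3C ranged from 169 to 261 with siCtrl#1 and from 374 to 886 with siCtrl#2, and its on-target group means spread from 84.4 to 935. For PDCD6, 14.9% of the 50-base stretches are shared with another gene that overlaps it on the same strand.

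The largest fold changes among the genes higher with siCtrl#2 belonged in part to genes with few reads. KRT15, a keratin of basal epithelium, had 2, 5 and 2 reads with siCtrl#1 and 26, 9 and 40 with siCtrl#2 (log2 fold change 3.01 ± 0.52). SEMA3C, a secreted semaphorin that binds neuropilins, stood at 5.89, 6.15 and 14.0 against 27.5, 26.2 and 44.1 CPM (1.87 ± 0.29). NTN1, the guidance cue netrin-1 (1.78), MAP3K7CL (1.85), MFAP3L (1.85) and NLRP11 (1.68) had levels of at most 10.0 CPM in every nontargeting library. MFAP3L was called in 6 and NLRP11 in 4 of the 16 alternative fits that held it, while KRT15 was called in 15, NTN1 in 14 and MAP3K7CL in 16.

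Among the genes lower with siCtrl#2, LMLN, which encodes a metallopeptidase of the leishmanolysin family, had the smallest p-value (chr3:197687071-197770591). It stood at 16.8, 19.1 and 21.4 CPM with siCtrl#1 and at 2.53, 3.47 and 3.66 with siCtrl#2, a log2 fold change of −2.55 ± 0.23 (adjusted p = 9.27e-07). The on-target means of 12.9 to 21.0 put siCtrl#2 apart from the other 5 groups. YBX3, a cold-shock domain protein that binds RNA and DNA, stood at 374, 353 and 379 with siCtrl#1 and at 164, 116 and 115 with siCtrl#2 (−1.49 ± 0.15), and EIF5A2, a translation factor paralogous to EIF5A, at 23.6, 22.1 and 24.3 against 6.82, 7.92 and 6.17 (−1.76 ± 0.19). siCtrl#2 was the lowest of the 6 groups for both. MICB, a stress-induced ligand of the NKG2D receptor of lymphocytes, was at 74.6 ± 6.36 with siCtrl#1 and 27.4 ± 5.18 with siCtrl#2 (−1.45), and was again lowest with siCtrl#2, the on-target means lying between 39.7 and 99.1.

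TONSL, a protein of replication fork repair, showed the opposite placement. It stood at 138, 104 and 110 with siCtrl#1 and between 38.5 and 63.1 with siCtrl#2 (−1.23 ± 0.16), and the on-target means of 46.1 to 54.4 lay on the siCtrl#2 side. GDF15, a secreted stress cytokine, fell from 109, 101 and 144 with siCtrl#1 to 45.2, 24.5 and 18.7 with siCtrl#2 (−2.04 ± 0.27), with on-target means of 20.1 to 115. HSPB1, a small heat shock protein, stood at 1450, 811 and 830 against 410, 268 and 349 (−1.57 ± 0.19). H2BC12, a histone H2B gene of which 57.2% of the 50-base stretches are shared with other genes, was lower by −1.56, LIMS1, an adaptor of integrin signaling, by −1.16, DPH2 by −1.16, SERPINB9 by −1.40 and DHRS11 by −1.37. The 12 genes with the smallest p-values in each direction, of which 1 had no matched name, kept their call in every alternative fit, except DHRS11, which kept it in 16 of 17.

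**Figure D2:**
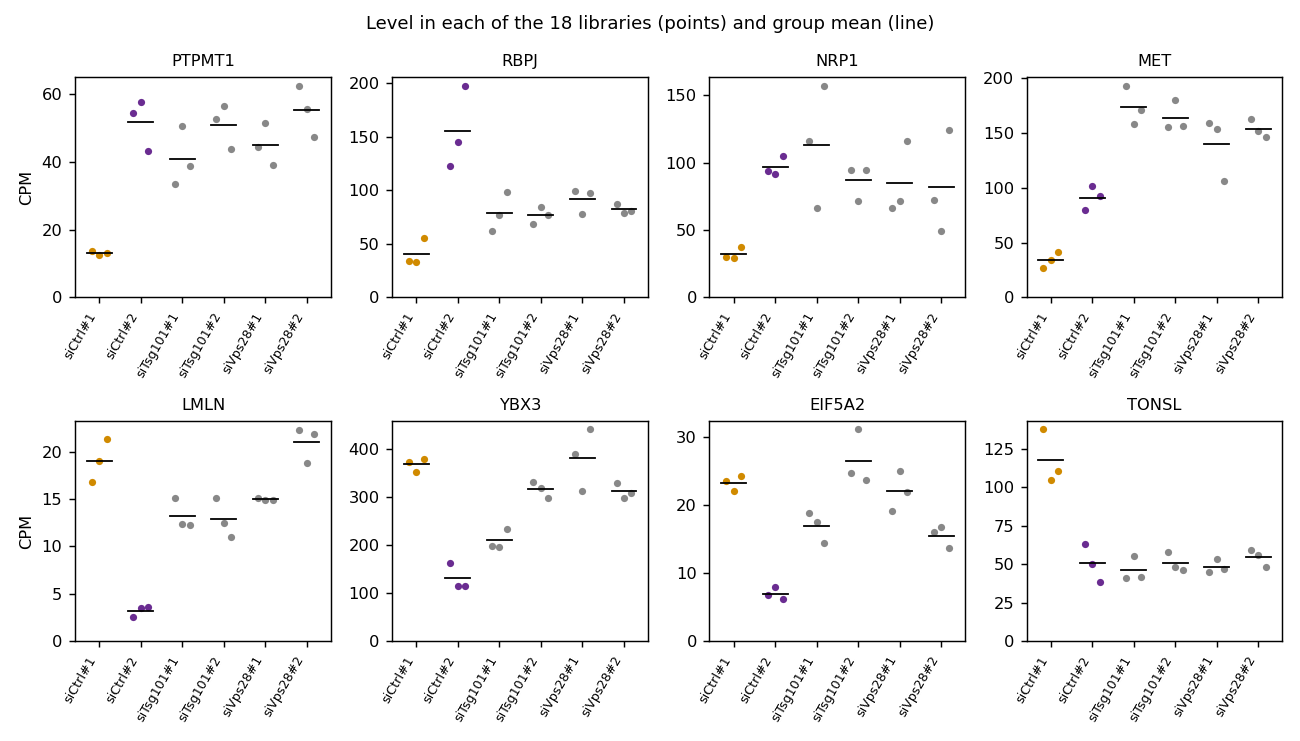
CPM (linear axis from 0) of 8 leading genes in each of the 18 libraries, with the group mean as a line. siCtrl#1 lies lowest for PTPMT1, NRP1 and MET and highest for TONSL, siCtrl#2 lies lowest for LMLN, YBX3 and EIF5A2, and for RBPJ the on-target groups lie between them.

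The same placement was counted over all called genes, as a description, since they were chosen for the difference between these very groups. For 83 of the 207 genes higher with siCtrl#2 only the siCtrl#1 mean lay outside the range of the 4 on-target group means, and for 27 only the siCtrl#2 mean did. Among the 120 genes lower with siCtrl#2 these counts were 36 and 26. The nontargeting means lay outside on opposite sides for 58 and 42 genes. Over all genes tested, only the siCtrl#1 mean was outside for 20.4%, only the siCtrl#2 mean for 15.3%, and the means were outside on opposite sides for 4.17%. The 12 on-target libraries lacked TSG101 or VPS28, so that this range is not an untreated level.

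The Notch pathway passes signals between neighbouring cells: a cleaved receptor enters the nucleus and turns RBPJ from a repressor into an activator of genes such as HES1 and NRARP. Of its 18 tested members, RBPJ was higher, HES1 and NRARP were lower, and 15 were not called. The median was −0.29, with 6 members above 0 and 12 below. Among all genes 2.03% were called higher, 1.17% were called lower, and 49.8% lay above 0. HES1, a transcriptional repressor, had 11, 38 and 26 reads with siCtrl#1 and 3, 7 and 6 with siCtrl#2, or 2.49, 11.7 and 4.44 against 0.758, 1.73 and 1.16 CPM (log2 fold change −2.22 ± 0.44, adjusted p = 0.00505). Every siCtrl#2 value lay below every siCtrl#1 value, and the on-target means were 3.16 to 6.70. NRARP, which limits Notch signaling as a feedback target, stood at 68.0, 44.6 and 56.1 against 18.2, 37.9 and 26.4 (−1.06 ± 0.23, adjusted p = 0.0106), and its on-target means of 31.3 to 38.9 lay between the nontargeting groups.

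HES1 lost its call in 3 of 16 alternative fits, among them the fit without siCtrl#1 replicate 2, its highest library, and NRARP kept it in 11 of 17. Among the other members, JAG1, a ligand, was at 0.84 (adjusted p = 0.116), JAG2 at −0.51 (0.0963), the receptor NOTCH1 at −0.33 (0.308) and the coactivator MAML1 at −0.51 (0.102), all without a call. Without siCtrl#2 replicate 1 the list had 2 members called higher and 5 lower, beside 3.56% and 3.52% of all genes in that fit. Its median there was −0.43.

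The promoter of HES1 is shown because RBPJ binds a TGGGAA core there in its textbook role. It is 300 bases of RefSeq's GRCh38.p14 sequence, chr3:194135898-194136197 on the plus strand, with matches to TGGGAA on either strand in capitals:

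HES1: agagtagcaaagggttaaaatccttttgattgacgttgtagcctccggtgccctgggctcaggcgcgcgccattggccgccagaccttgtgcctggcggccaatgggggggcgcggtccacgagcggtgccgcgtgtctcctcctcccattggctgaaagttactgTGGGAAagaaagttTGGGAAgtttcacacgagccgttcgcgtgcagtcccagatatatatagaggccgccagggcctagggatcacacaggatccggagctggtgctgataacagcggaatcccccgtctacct

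HES1 holds 2 matches, which 3.80% of the 35116 promoters searched also reached, and 24.0% held at least 1. No match lay in the promoter of NRARP, which was lower as well, and a match is only a match of letters. Among the promoters of 15 list genes, those of 3 held a match. Besides HES1 these were HES4, not called, with 1 match, and RBPJ, called higher, with 2 in the promoter at chr4:26319496-26319795.

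Metallothioneins are small cysteine-rich proteins that bind zinc and copper, and their genes are induced through the metal-responsive factor MTF1. Of 5 metallothionein genes tested, 3 were lower with siCtrl#2 and none higher, beside 1.17% called lower among all genes. The list held MTF1 and the zinc exporter SLC30A1 besides. MT1X stood at 313, 271 and 180 CPM with siCtrl#1 and at 172, 104 and 80.7 with siCtrl#2 (−1.11 ± 0.18, adjusted p = 9.27e-04). MT2A stood at 15500, 20600 and 14000 against 14900, 8520 and 7360 (−0.73 ± 0.19), and MT1E at 958, 1330 and 1230 against 934, 548 and 610 (−0.77 ± 0.21). The 2 last genes differed in batches 2 and 3 and hardly in batch 1, where their log2 differences were −0.07 and −0.04, and the groups overlapped for MT2A. Without siCtrl#2 replicate 1 their log2 fold changes were −1.05 and −1.04, and without the batch term neither was called.

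MT1M (−0.36), MT1F (0.11), MTF1 itself (−0.00) and SLC30A1 (−0.17) were not called. Metallothionein genes share sequence with each other, at 10.3% of the 50-base stretches for MT1E, 14.7% for MT1X and 5.0% for MT2A. The copper importer SLC31A1 was higher with siCtrl#2, at 206, 243 and 202 against 77.9, 153 and 115 (0.95 ± 0.14). FTL, the light chain of the iron store ferritin, was lower, at 4230, 3130 and 2740 against 5910, 5960 and 5110 (−0.77 ± 0.15), with 18.5% of its stretches shared with pseudogenes.

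The promoters of MT1X (chr16:56682220-56682519) and MT2A (chr16:56608334-56608633), both on the plus strand of GRCh38.p14, are shown because their metal response elements carry the core TGCACNC or TGCGCNC, here in capitals where it matched on either strand:

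MT1X: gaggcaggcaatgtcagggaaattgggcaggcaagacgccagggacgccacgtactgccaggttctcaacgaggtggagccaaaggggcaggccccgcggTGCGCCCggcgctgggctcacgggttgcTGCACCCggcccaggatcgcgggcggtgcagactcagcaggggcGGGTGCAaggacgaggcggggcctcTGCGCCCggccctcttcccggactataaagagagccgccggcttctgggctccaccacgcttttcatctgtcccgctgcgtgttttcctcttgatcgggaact

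MT2A: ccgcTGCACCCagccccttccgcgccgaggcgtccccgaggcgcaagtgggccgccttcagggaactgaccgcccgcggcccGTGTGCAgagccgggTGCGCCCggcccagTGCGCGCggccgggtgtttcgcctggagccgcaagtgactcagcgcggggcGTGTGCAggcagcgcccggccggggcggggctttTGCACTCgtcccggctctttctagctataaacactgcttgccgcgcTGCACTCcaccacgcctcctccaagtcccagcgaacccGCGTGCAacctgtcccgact

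These hold 4 and 8 matches against at least 4 in 0.601% of all promoters and at least 1 in 29.6%. A promoter was at hand for only 2 of the 5 metallothionein genes tested, both called lower. Matches were therefore not compared between called and uncalled metallothioneins.

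**Figure D3:**
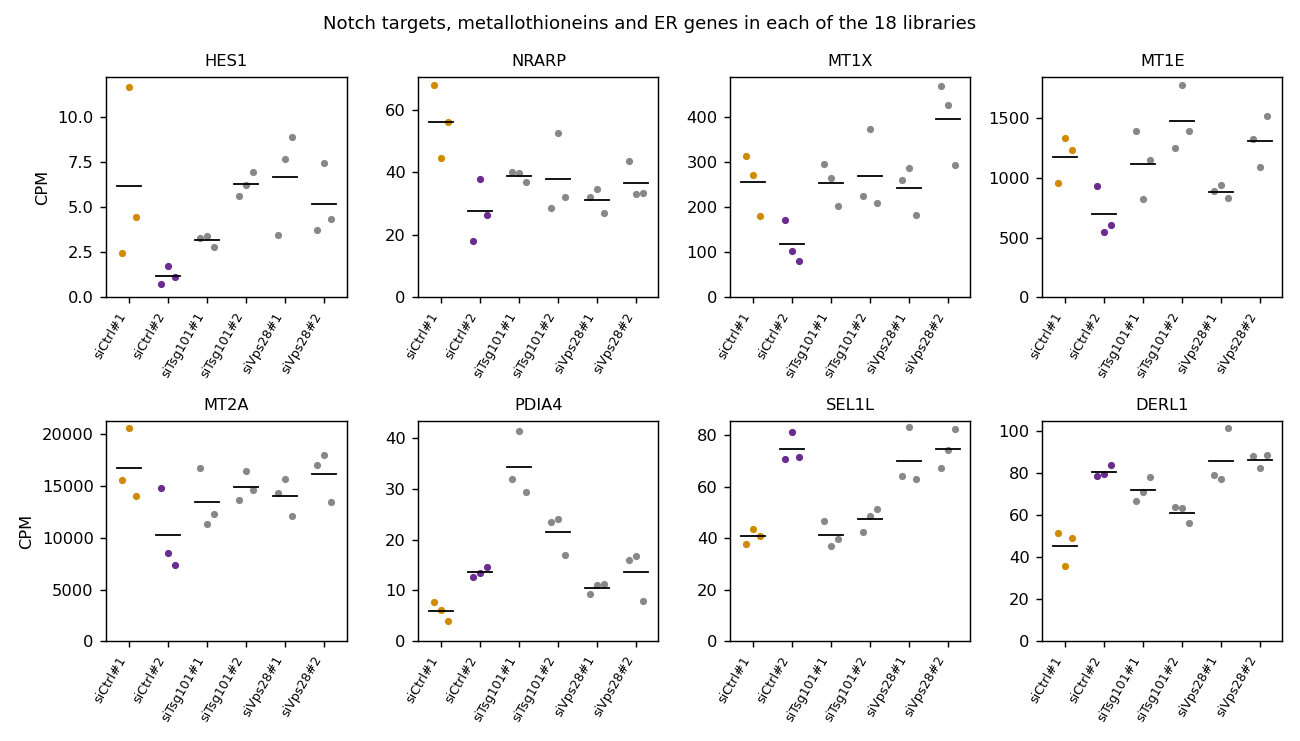
CPM (linear axis from 0) in each of the 18 libraries, with group means as lines, for HES1, NRARP, 3 metallothioneins and 3 genes of the endoplasmic reticulum (ER). The siCtrl#2 libraries lie lowest for HES1 and below the siCtrl#1 libraries for MT1X, replicate 1 of siCtrl#2 reaches the siCtrl#1 range for MT2A, and siCtrl#1 is lowest for PDIA4 and DERL1.

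ER chaperones fold secreted proteins, and a linked set of membrane proteins returns misfolded ones to the cytosol for degradation. Of 29 tested genes of this list 5 were higher with siCtrl#2 and none lower, beside 2.03% and 1.17% of all genes, with a median of 0.19 and 21 members above 0. The median was 0.13, 0.20 and 0.24 in the 3 batches. SEL1L, the scaffold of a ubiquitin ligase for misfolded proteins, stood at 37.8, 43.6 and 40.9 against 71.0, 81.4 and 71.5 (0.87 ± 0.15, adjusted p = 0.0015). DERL1 and DERL2, channel proteins of the same route, were at 45.6 ± 8.41 against 80.8 ± 2.67 (0.82) and higher by 0.96. PDIA4, a disulfide isomerase, stood at 7.70, 6.15 and 3.93 against 12.6, 13.4 and 14.6 (1.24 ± 0.26), and DNAJC3, a co-chaperone, at 44.6, 39.0 and 32.3 against 42.7, 79.5 and 73.0 (0.75), with overlap between the groups.

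The best known chaperone of the list, HSPA5, was at 0.48 (adjusted p = 0.0474), under 1.5-fold. The transcription factors and sensors of the unfolded protein response were not called: XBP1 was at 0.09, ATF6 at 0.31, ERN1 at 0.16 and EIF2AK3 at −0.23. Both without siCtrl#2 replicate 1 and without the batch term 5 members were called higher and none lower. With only the 6 nontargeting libraries and the batch term, SEL1L was the only one of the 5 genes that kept its call. Over the 17 alternative fits SEL1L was called in 16, DERL1 in 14, PDIA4 in 11, and DERL2 and DNAJC3 in 9 each. Of 32 genes of the COPI and COPII coats and the secretory pathway 25 were above 0, with a median of 0.15, and none was called, while 3 were called higher without siCtrl#2 replicate 1. SEC24C, a COPII cargo adaptor, was at 0.54 (adjusted p = 0.0427), under 1.5-fold.

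Genes of DNA replication lay mostly below 0. Of 47 tested, 41 lay below 0 and 6 above, the median was −0.30, and 2 were called lower, beside 1.17% of all genes. MCM5, a subunit of the replicative helicase, stood at 201, 245 and 154 with siCtrl#1 and at 186, 112 and 91.1 with siCtrl#2 (−0.62 ± 0.17, adjusted p = 0.0443). POLD1, the catalytic subunit of DNA polymerase delta, stood at 97.2, 60.9 and 75.6 against 57.6, 46.0 and 43.9 (−0.67 ± 0.18, adjusted p = 0.0433). The members of the list that were not called included MCM7 (−0.55, adjusted p = 0.0568), MCM10 (−0.54, 0.086) and UHRF1 (−0.55, 0.0906). The list median was −0.35, −0.13 and −0.28 in the 3 batches. Without siCtrl#2 replicate 1 it was −0.31 and 5 members were called lower, and without the batch term none was.

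Other cell cycle lists were also described, beside 2.03% called higher and 1.17% called lower among all genes. Of 51 genes of mitosis and cytokinesis only TTK, a spindle checkpoint kinase, was called (27.9, 25.2 and 26.5 against 16.7, 19.1 and 14.6, log2 fold change −0.68), and the list median was −0.34 in batch 1 and 0.07 in the others. The list had 2 genes lower without siCtrl#2 replicate 1. Of 28 genes of the G1/S list CCND3, E2F5 (0.77) and the inhibitor CDKN1A (0.67) were higher and none was lower. Replication-dependent histones had a median of −0.12 with 30 of 44 below 0, but of 0.30 in batch 1 and −0.40 and −0.31 in batches 2 and 3. Of these 44 genes 1 was called lower, and 4 when siCtrl#2 replicate 1 was left out.

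p53, which responds to DNA damage and other stress, had 34 targets tested. Of these, 2 were higher and 3 lower, beside 2.03% and 1.17% of all genes, with 11 above 0 and 23 below. CDKN1A, a cell cycle inhibitor, stood at 494, 546 and 470 against 981, 715 and 739 (0.67). FDXR (−1.18), DDB2 (−0.76) and BTG2 (−0.66) were lower. CDKN1A fell under 1.5-fold without siCtrl#2 replicate 1 (0.57), which left 1 target higher and 3 lower. Of 34 apoptosis regulators 4 were higher and none lower, among them the survival factor MCL1, at 440, 393 and 483 against 822, 691 and 797 (0.81 ± 0.13), and XIAP (0.70) and BIRC2 (0.67) of the inhibitor of apoptosis family. The fit without siCtrl#2 replicate 1 called 6 of them higher and 1 lower.

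Targets and partners of YAP and TAZ, coactivators of growth that respond to cell contact and stiffness, had 4 of 22 tested members higher and none lower, with 18 above 0 and a median of 0.25, beside 2.03% called higher and 49.8% above 0 among all genes. WWTR1, which encodes TAZ, stood at 51.2, 78.1 and 63.4 against 118, 102 and 110 (0.78 ± 0.17), PTPN14, which binds and restrains YAP, was higher by 0.81, DLC1 by 0.67 and NT5E, which was called in 7 of 17 alternative fits, by 0.76. CCN2 (0.76, adjusted p = 0.086) and CCN1 (0.05), the targets most often measured, were not called. In the extracellular matrix list TNC, the matrix protein tenascin-C, stood at 15.6, 20.9 and 23.4 against 41.9, 45.1 and 61.9 (1.31 ± 0.19) and PLAU, the urokinase protease, was higher by 0.95, and 3 members of that list were higher without siCtrl#2 replicate 1. Of 21 tested genes of the integrin list ITGA1 (−1.48) and LIMS1 were lower, beside 1.17% of all genes. ITGA1 was called in only 2 of 16 alternative fits, at levels of 0.758 to 3.85 CPM in the nontargeting libraries. Without siCtrl#2 replicate 1 ITGA1 was not called, and 2 members of the list were higher and 1 lower. For LIMS1, 21.1% of the 50-base stretches are shared with other genes. Of 7 epithelial markers tested, 5 lay below 0, with a median of −0.20 (−0.52 without siCtrl#2 replicate 1). EPCAM, an adhesion protein of epithelia, was the only one called and was higher, at 16.2, 12.9 and 11.6 against 9.06, 6.45 and 4.62 (1.03).

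Interferon-response genes and RNA sensors were examined because transfected RNA can induce them. Of 39 tested, 2 were higher and none was lower, beside 2.03% called higher among all genes. SP100, a nuclear body protein, stood at 15.4, 14.4 and 25.6 against 26.3, 33.2 and 43.0 (log2 fold change 0.89). The median was 0.02, with 20 genes above 0 and 19 below. The list had 1 gene called higher when siCtrl#2 replicate 1 was left out and none without the batch term. USP18, among the members with the smallest p-values, was at −0.62 (adjusted p = 0.148). Of 25 genes of the RNA interference machinery CNOT7, a deadenylase subunit recruited by silencing complexes, was the only one called, at 48.7, 40.3 and 56.1 against 67.2, 99.8 and 114 (0.96 ± 0.21). EDC4, a decapping scaffold (−0.65, adjusted p = 0.0674), and TNRC6C, an Argonaute partner (0.87, adjusted p = 0.0985), were not. Of 39 NFkB targets and cytokines PLAU, CYLD (0.70) and BIRC2 were higher, beside 2.03% of all genes, and the median was −0.01.

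Lists that bear on the study's own subject are set beside 2.03% called higher and 1.17% called lower among all genes. In the fit without siCtrl#2 replicate 1 these shares were 3.56% and 3.52%. Of 66 lysosomal genes ATP6V0A1, a subunit of the proton pump, was called (49.8, 33.2 and 55.7 against 85.1, 77.2 and 93.5, log2 fold change 0.90), and the list median was 0.09. Without siCtrl#2 replicate 1 the list had 1 gene higher and 3 lower. Of 39 autophagy genes MAP1LC3C and ATG12 (0.72) were higher, and 1 gene was lower without siCtrl#2 replicate 1. Of 31 ESCRT subunits none was called (median −0.00) except VPS28 in the fit without siCtrl#2 replicate 1, and of 24 genes of early and recycling endosomes none was, with 2 higher in that same fit. Of 25 genes of cholesterol synthesis and uptake HMGCS1, a synthase of that route, was called (29.7, 28.3 and 26.5 against 34.4, 55.2 and 54.2, 0.77), while its on-target means were 240 to 387. Without siCtrl#2 replicate 1 that list had 4 genes higher. CD68, which is also a lysosomal glycoprotein, stood at 721, 514 and 632 against 1050, 782 and 998 (0.60) and lost its call without siCtrl#2 replicate 1 (0.54). Of the 50-base stretches of CD68, 92.3% are shared with other genes, and its exons overlap another gene on the same strand.

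The next lists are likewise set beside 2.03% called higher and 1.17% called lower among all genes. The amino acid response driven by ATF4 had 32 tested genes. PSAT1, an enzyme of serine synthesis, was higher, at 91.7, 115 and 139 against 180, 298 and 280 (1.11 ± 0.17), and GDF15 was lower. Without siCtrl#2 replicate 1, 2 genes of this list were higher. Of 22 aminoacyl-tRNA synthetases WARS1 (0.85) and GARS1 (0.65) were higher, and GARS1 lost its call without siCtrl#2 replicate 1, where another member was lower. Immediate early genes had KLF2 (9.29, 12.6 and 16.4 against 44.5, 30.4 and 27.0, log2 fold change 1.39), EGR2 (1.19, not called without siCtrl#2 replicate 1) and MCL1 higher and BTG2 lower among 28, and their median of 0.50 in batch 1 stood against −0.01 and −0.07 in the others. Of 22 cytosolic heat shock genes HSPB1 was called, and HSP90AA1 was called higher without siCtrl#2 replicate 1. With all libraries HSP90AA1 was at 0.63 (adjusted p = 0.067) and FKBP4, a co-chaperone of HSP90, at −0.51 (0.0651). In glycolysis the glucose transporter SLC2A3 was higher, at 82.1, 114 and 113 against 39.9, 58.1 and 57.8 (0.99), and LDHA, lactate dehydrogenase, was lower (−0.74), with 2 genes lower once siCtrl#2 replicate 1 was left out. Of the 50-base stretches, 21.4% for SLC2A3 and 12.2% for LDHA are shared with other genes.

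**Figure D4:**
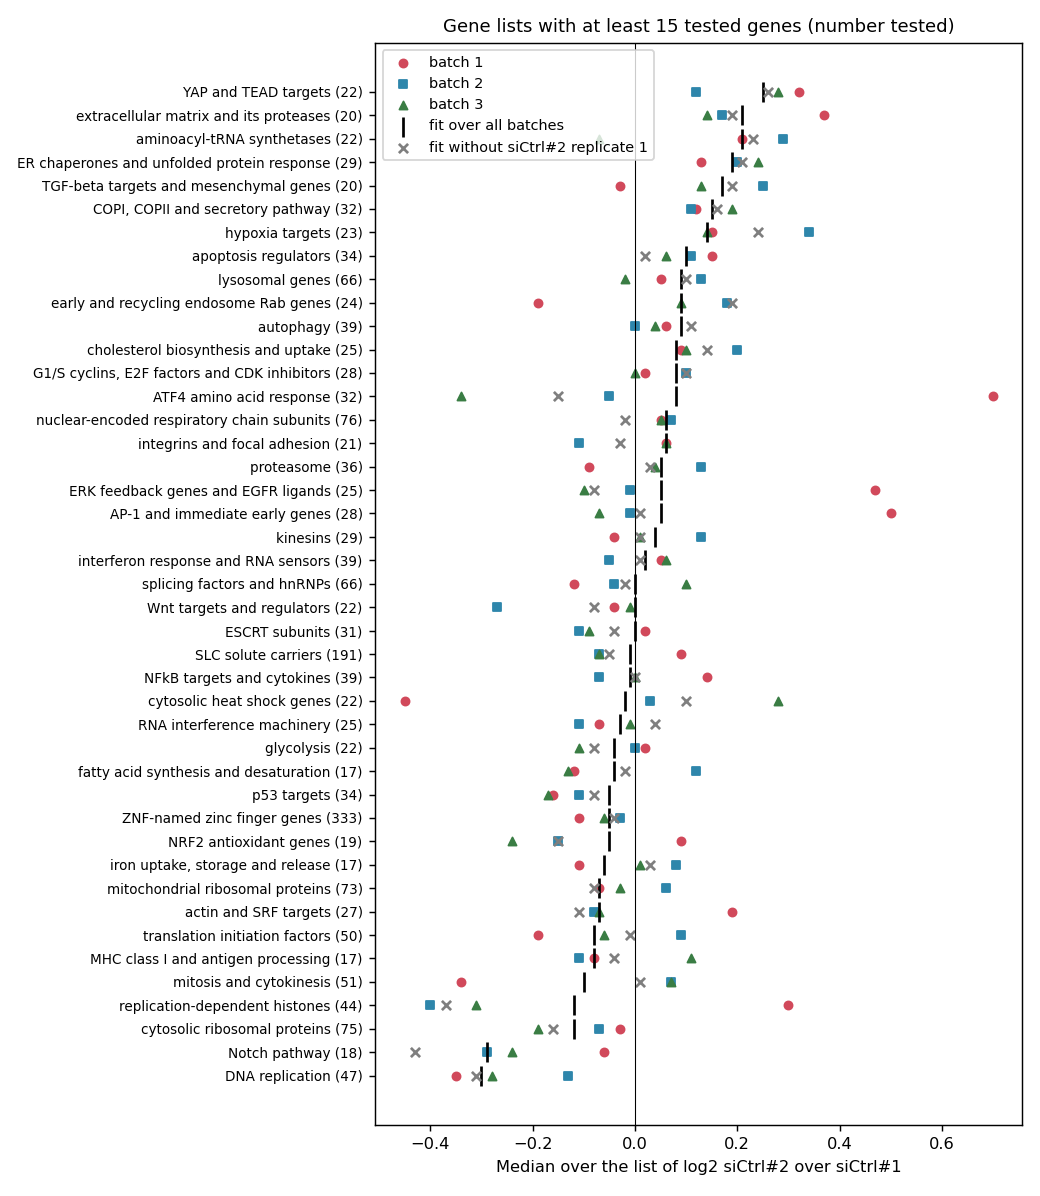
Median log2 difference of siCtrl#2 over siCtrl#1 for each gene list with at least 15 tested genes, in batch 1, 2 and 3 and in the fits with and without siCtrl#2 replicate 1. Batch 1 lies far from the others for the ATF4, ERK, AP-1, heat shock, mitosis and histone lists. All 3 batches lie below 0 for DNA replication, and also for p53, Notch and cytosolic ribosomal lists among others. They lie above 0 for YAP and ER chaperones, and also for secretory pathway, hypoxia, extracellular matrix and cholesterol lists among others.

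Large gene classes had few calls in the model with all libraries, which called 2.03% of all genes higher and 1.17% lower. Of 75 cytosolic ribosomal proteins 61 lay below 0, with a median of −0.12, and RPLP0, of which 22.8% of the 50-base stretches are shared with pseudogenes and other genes, was called lower, at 5230, 3960 and 4160 against 7030, 7180 and 7400 (−0.69 ± 0.15). Leaving out siCtrl#2 replicate 1 gave 4 lower, in a fit that called 3.56% of all genes higher and 3.52% lower. Of 73 mitochondrial ribosomal proteins and 76 respiratory chain subunits none was called, with medians of −0.07 and 0.06. Without that library 3 mitochondrial ribosomal genes were higher and 3 lower, and 2 respiratory chain genes were higher and 2 lower, the respiratory chain median turning to −0.02. Splicing factors (66 tested, median −0.00), kinesins (29, 0.04), the proteasome (36, 0.05), MHC class I (17, −0.08) and Wnt targets (22, 0.00) also had none, while without siCtrl#2 replicate 1 there were 2 splicing genes lower, 2 proteasome genes higher and 1 Wnt gene in each direction. Of 333 genes named as ZNF zinc finger genes ZNF672 (−0.90) and ZNF296 (−0.84) were lower, and 9 were without siCtrl#2 replicate 1. Of 191 solute carriers 6 were higher and 3 lower, among them SLC35D1 (1.30), a nucleotide sugar transporter, the amino acid transporter SLC36A1 (1.19), the inositol transporter SLC5A3 (0.75) and the thiamine transporter SLC19A2 (−1.04). Together 9 of these 191 genes were called, beside 3.2% of all genes tested. These counts were 10 higher and 11 lower without siCtrl#2 replicate 1, and 4 and 1 without the batch term.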

How the data were processed

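Total RNA of 18 RKO transfections was amplified by the authors with an Ion AmpliSeq panel of the human transcriptome and sequenced on an Ion Proton. They mapped reads to an hg19 panel reference and deposited raw read counts per target, made with HTSeq-count 0.6.0. Its strand setting is not given in the sources used here, so that reads of antisense partners cannot be told apart. Of 20802 targets, 20224 were matched through their RefSeq accession to a symbol (RefSeq, GRCh38.p14). GRCh37 positions came from GENCODE by symbol. The 6 nontargeting libraries held 3553207 to 6352155 counted reads, 45.71 to 46.16% of each file's total, with 48.5 to 49.07% on no feature. The 10 spike-in targets, with 1 read in all, and the summary rows were left out. The reads carry no molecular identifiers.

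Targets with over 100 counts in all libraries together were kept (10632), 419 noncoding ones were left out, and 10213 were tested with edgeR 4.0.16 (R 4.3.3): TMM scaling, a quasi-likelihood fit of siRNA group and batch over all 18 libraries, and Benjamini-Hochberg adjustment over all genes. Called means an adjusted p under 0.05 and at least 1.5-fold. The batch number in the labels paired the libraries, and the deviations of same-numbered libraries from their group means correlated at −0.074, 0.069 and 0.278. No 2 libraries of the same nontargeting siRNA agreed within sampling noise, and other pairs were not compared in this way. Genes were named as the 12 called genes of smallest p and the 8 of largest fold in each direction, called members of the gene lists, up to 3 members of smallest p in each list, the targeted genes and cell-line markers; other list members named without a call (HSPA5, the Notch, YAP, metallothionein, replication and unfolded protein response genes) were chosen after their values were seen. The comparison, its members and the lists were chosen with earlier results of these data known. Lists were described by counts and medians with no test. DESeq2 1.42.0, other filters and scalings, fits without the batch term, with 6 libraries, and without each library or batch were the alternatives. Some called members of the lists are counted but not reported here by name.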

Additional observations from a re-analysis of the deposited data

How the results depend on the processing

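The counts of 207 genes higher and 120 lower with siCtrl#2 stayed within 1.5 times of these values under DESeq2 (245 and 137), other size factors, other filters on low counts, and with noncoding genes included. They moved further in other fits. With only the 6 nontargeting libraries the counts were 50 and 22 with the replicate block and 68 and 21 without it. Without the replicate block on all 18 libraries they were 144 and 69. Leaving out 1 library or 1 batch gave 53 to 364 genes higher and 18 to 360 lower, the highest counts coming without siCtrl#2 replicate 1 and the lowest without batch 2 or batch 3. The cause was not tested. List medians near 0 changed sign, such as that of the respiratory chain, at 0.06 and at −0.02 without siCtrl#2 replicate 1. None of the 95 named genes that were called changed sign in any fit, but they were chosen for a difference in these same libraries. Changes of sign were not counted for genes named without a call. Of the 95 called genes, 30 kept their call in every fit that held them, 18 of them higher and 12 lower. Without siCtrl#2 replicate 1, 89 kept it, and 67 did without the replicate block and 41 with only the 6 libraries and the block. Genes near 1 CPM, such as NLRP11 and MFAP3L, rest on few reads in each library, and their fold changes are imprecise.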
